A study of Mus musculus with 6 samples.

Results

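The windows of olfactory and vomeronasal receptor genes were examined in H3K79me2 peak lists of N2a cells, an established mouse neuroblastoma line. A window was the body of a gene plus 3 kb on each side. All protein-coding genes of GENCODE release M21 on chromosomes 1 to 19 whose symbol marks them as Olfr, Vmn1r or Vmn2r were taken, which gave 1416 windows (1087 Olfr, 208 Vmn1r and 121 Vmn2r) of 20807 protein-coding windows in all. No measured value entered this choice. A further 8 receptor genes on other chromosomes and 503 receptor records of another type, such as pseudogenes, were left out.

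Both groups were N2a cells transfected with a short hairpin RNA plasmid, selected with puromycin and collected after 3 days in vitro. Control cells (CTR) carried pLKO.1-shCTR, a non-target hairpin, and knockdown cells (NPM1 KD) carried pLKO.1-shNpm1. Each group had 2 libraries, which the study describes as biological replicates from different cell passages, and 1 pooled input per group that entered no comparison here. The narrow lists held 73801 to 88348 peaks per library and the broad lists 34845 to 48764. CTR 2 had the shortest list of both kinds. Read depth per library was not analysed here, because the files hold peaks and no reads, and for the same reason the level of Npm1 could not be checked. All positions below are on GRCm38 and count from 1.

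H3K79me2 is laid down by the methyltransferase DOT1L along the first part of transcribed genes, so that peaks of this mark usually start at an active promoter and extend into the gene body. Olfactory receptors (Olfr) are G protein-coupled receptors of the sensory neurons of the nose, and Vmn1r and Vmn2r genes encode the pheromone receptors of the vomeronasal organ. They lie in large tandem clusters, and a mature sensory neuron expresses a single receptor gene while the others are kept in heterochromatin. In cells outside these sensory tissues the genes are largely silent. NPM1, nucleophosmin, is a nucleolar chaperone.

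Sequences at or next to chosen receptor peaks differed in CpG content. Examples are shown in lower case with CG dinucleotides in capitals, read from GRCm38 on the plus strand. CpG content was not counted over all regions. The 200 bases around the summits at Olfr1416 and Olfr630, not shown, held 14 and 2 CG dinucleotides. The 82 bases between the pheromone receptor Vmn1r4 and its head-to-head neighbour Nt5c3 (chr6:56923933-56924014) held 9 CG dinucleotides. The 200 bases around the summit next to Olfr986 (chr9:40192617-40192816), which lie inside Zfp202, held 11. In contrast, the 200 bases around the summit at the start of Olfr1047 (chr2:86231405-86231604, intergenic) held none, those around the summit downstream of Olfr69 (chr7:103765130-103765329, intergenic) held 1, and those around the summit in the coding exon of Olfr222 (chr11:59571484-59571683) held 1.
Vmn1r4 to Nt5c3: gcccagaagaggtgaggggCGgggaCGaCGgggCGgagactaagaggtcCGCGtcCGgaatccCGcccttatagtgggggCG
Olfr986 (Zfp202): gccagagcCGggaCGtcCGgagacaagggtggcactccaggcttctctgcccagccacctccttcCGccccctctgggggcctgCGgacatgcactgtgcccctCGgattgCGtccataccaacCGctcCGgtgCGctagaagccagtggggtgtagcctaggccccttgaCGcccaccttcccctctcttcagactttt
Olfr1047: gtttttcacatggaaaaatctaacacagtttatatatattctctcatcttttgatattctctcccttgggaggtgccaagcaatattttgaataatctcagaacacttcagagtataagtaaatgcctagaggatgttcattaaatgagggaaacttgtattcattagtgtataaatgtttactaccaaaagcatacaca
Olfr69: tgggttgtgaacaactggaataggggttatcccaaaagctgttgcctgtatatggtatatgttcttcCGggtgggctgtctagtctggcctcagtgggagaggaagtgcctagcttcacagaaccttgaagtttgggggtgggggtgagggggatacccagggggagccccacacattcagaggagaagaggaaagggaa
Olfr222: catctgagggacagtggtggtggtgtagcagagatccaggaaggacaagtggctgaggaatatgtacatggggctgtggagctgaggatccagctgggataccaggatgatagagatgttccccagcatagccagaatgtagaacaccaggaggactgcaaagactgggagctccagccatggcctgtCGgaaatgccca

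A further kind of sequence was a repeat found in many copies. The study lists primer pairs for mouse repeats, among them intracisternal A particle (IAP), an endogenous long terminal repeat retrotransposon of the mouse genome. The IAP pair is shown because it was used to find IAP copies in the receptor windows.
IAP forward: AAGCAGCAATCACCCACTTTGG
IAP reverse: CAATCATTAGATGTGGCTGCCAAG

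The first question was how often a receptor window carried H3K79me2 at all. A narrow peak was present in 20 and 16 of 1416 windows in CTR 1 and 2, and in 18 and 19 in NPM1 KD 1 and 2. Together 25 windows (1.77%, 95% exact Clopper-Pearson interval 1.15 to 2.60%) held a narrow peak in at least 1 library, against 57.7% of all protein-coding windows, and 14 held one in all 4 libraries (0.989%, 0.542 to 1.65%), against 54.6%. The broad lists gave 12 windows with a peak in at least 1 library, against 57.2%, and 8 in all 4, against 54.2%. In total 1390 receptor windows (98.2%) were free of any peak in all 8 lists. The intervals cover counting error only, and windows in a cluster share sequence and neighbours. Receptor windows were also shorter, with a median of 12.3 kb against 25.5 kb for the other protein-coding windows.

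The low share held in each family. Of the Olfr windows, 20 of 1087 held a narrow peak in at least 1 library. Among the Vmn1r windows it was 1 of 208, namely Vmn1r4. The Vmn2r windows, which were the longest with a median of 33.1 kb, held a narrow peak in 4 of 121 and a broad peak in 1.

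Receptor windows with a peak often held it in some libraries only. Of the 25 windows with a narrow peak, 14 (56.0%) held one in all 4 libraries, 2 in 3, 2 in 2 and 7 (28.0%) in a single library. Of the 11977 other protein-coding windows with a narrow peak, 94.7% held one in all 4 libraries and 1.76% in a single one. These counts do not require the same peak in each library. At Vmn2r38, counted in all 4, no merged narrow region was held by more than 3. At the level of regions, however, the receptor windows were close to the genome: 32.7% of their 49 distinct narrow regions were found in all 4 libraries and 36.7% in 1, against 37.9% and 35.9% of the 89628 regions on chromosomes 1 to 19.

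Most markers of the N2a lineage carried H3K79me2. Of 10 markers of sympathetic neuroblastoma and neurons, 9 held a narrow peak in all 4 libraries, against 54.6% of all protein-coding windows, among them the transcription factors Hand2 and Isl1, while Dbh, which encodes dopamine beta-hydroxylase, held none. Th, which encodes tyrosine hydroxylase, was among the 9 with 0.334 to 5.52% of its window covered. Of 20 genes of olfactory and vomeronasal signalling or receptor choice, 9 held a narrow peak in all 4 libraries and 11 held none in any, so that the marked share was near that of all protein-coding windows. Those with a peak included the G protein subunits Gnao1 and Gnai2, the LIM cofactor Ldb1, the histone demethylase Kdm1a and the stress response factor Atf5. The olfactory channel subunits Cnga2 and Cnga4, the chloride channel Ano2, the receptor transporters Rtp1 and Rtp2, and the vomeronasal channel Trpc2 were all without a peak. Omp, the olfactory marker protein, held narrow peaks over 48.6 to 85.2% of its window. Whether another gene overlaps that window was not examined, so the mark is not assigned to Omp. The adenylyl cyclase gene Adcy3 was covered over 1.34 to 2.63% and Gnal over 2.39 to 2.52% of the window.

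Peaks in the receptor windows differed widely in strength, and the windows were sorted into 3 sets by what the region reached or the window held. The strength is given as −log10 q, the value MACS2 assigns to a peak after adjustment within its own library. In 4 windows the region also reached the body of a gene outside the families (Olfr1416, Vmn1r4, Olfr986 and Olfr311), with −log10 q of 42.8 to 308. In 11 windows IAP sequence was present, judged by shared words of 51 bases, and −log10 q ran from 1.82 to 28.4 with a median of 4.66. It was judged over the whole window, so a peak in this set need not lie on it. The Vmn2r60 region at chr7:42106889-42107131 held 0% IAP words. The remaining 11 had neither and ranged from 1.496 to 148, with Olfr171 holding a broad peak only.

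**Figure D1:**
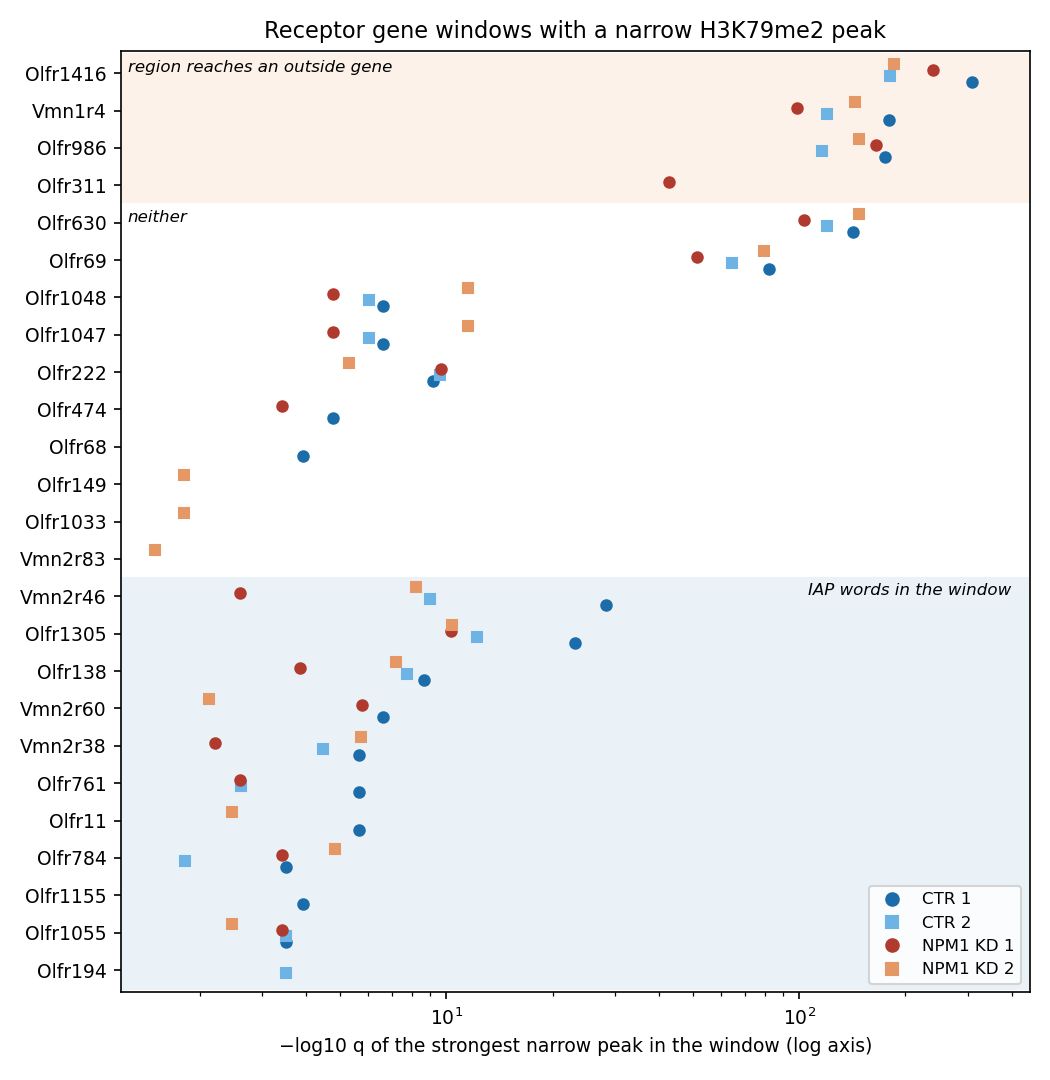
Strongest narrow peak in each of the 25 receptor windows with a narrow peak, as −log10 q on a log axis, with 1 point per library in which a peak was called (blues for CTR, red and orange for NPM1 KD). The windows that reach an outside gene sit at 42.8 to 308, Olfr630 and Olfr69 at 51.4 to 148, and the windows with IAP sequence at 1.82 to 28.4. The values of Olfr630 belong to a peak that crosses the window edge and has its summit outside the window.

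Vmn1r4 (chr6:56924015-56958100, plus strand) lay closest to a marked gene. Its start lies 82 bases from Nt5c3, which encodes a pyrimidine nucleotidase and is transcribed away from it. A single narrow peak of 30788 to 33222 bp in each library lay over the 5′ part of Nt5c3 and crossed its start into the window of Vmn1r4, and the closest broad region stopped 16 bp before the receptor. The −log10 q was 180 and 120 in CTR 1 and 2, and 98.7 and 144 in NPM1 KD 1 and 2, so that the groups overlapped. No base of the Vmn1r4 body was covered in any library. Vmn1r4 was 1 of 2 receptor genes with a narrow peak in all 4 libraries within the 1 kb centred on the start site, the other being Olfr1047. Over all protein-coding genes this share was 41.1%.

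The same arrangement was found at the other end of the gene for Olfr1416 and Olfr986. Olfr1416 (chr1:92475925-92485113, minus strand) lies 2064 bp from Ndufa10, a subunit of mitochondrial complex I, whose start site faces the receptor's 3′ end. The narrow peak over the Ndufa10 start had a −log10 q of 308 and 181 in CTR 1 and 2, and 239 and 186 in NPM1 KD 1 and 2, and 986 to 1155 bp of it lay in the receptor window. The nearest broad region ended 1811 bp from the receptor body.
Olfr986 (chr9:40180920-40190134, plus strand) lies 2181 bp upstream of Zfp202, a zinc finger protein gene. Its strongest peak had a −log10 q of 175, 116, 165 and 148 in CTR 1, CTR 2, NPM1 KD 1 and NPM1 KD 2. The broad region came to within 127 bp of the receptor body and covered none of it. At Olfr311 only the peak of NPM1 KD 1 crossed the window edge, by 11 bp, from the neighbouring gene Gm12258, whose region was held by all 4 libraries.

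**Figure D2:**
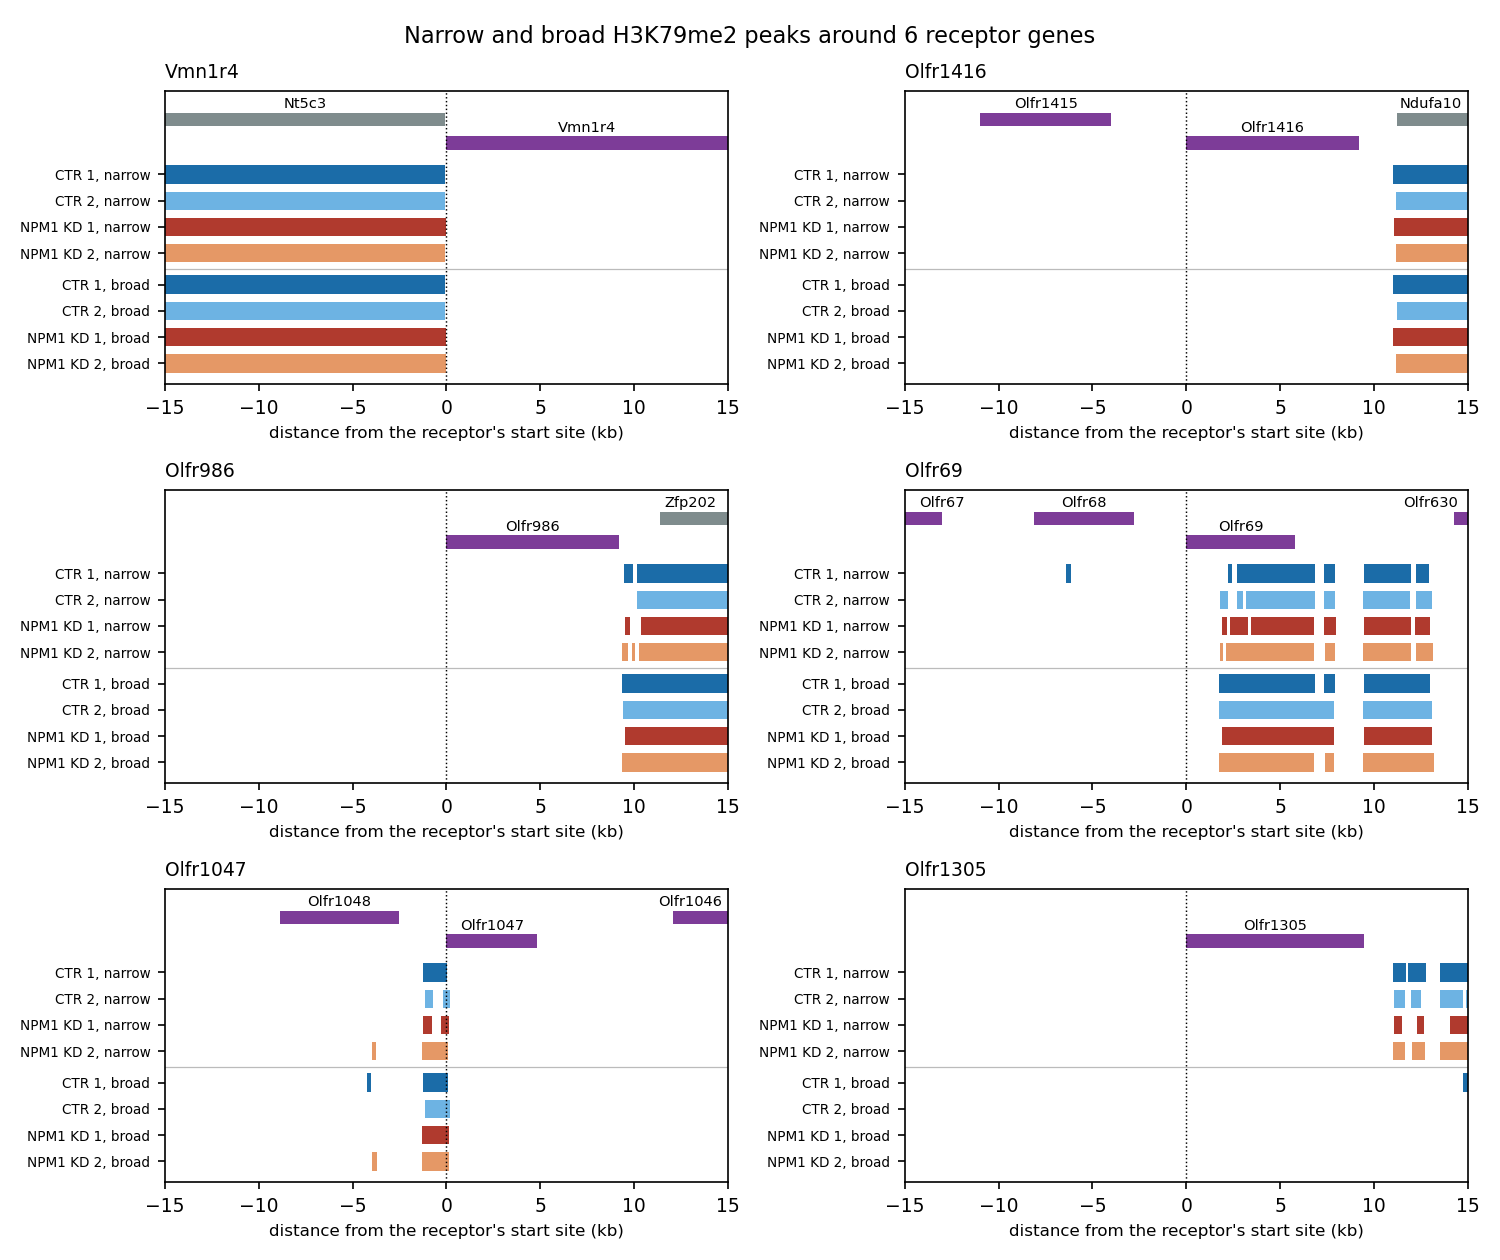
Narrow and broad peaks of the 4 libraries within 15 kb of the start site of 6 receptor genes, drawn in the direction of transcription with protein-coding genes above (purple for receptors, grey for others). The domains of Nt5c3, Ndufa10 and Zfp202 stop short of Vmn1r4, Olfr1416 and Olfr986, the peaks at Olfr69 cover its body, and those downstream of Olfr1305 are in the narrow lists with only a CTR 1 broad peak at the edge of the panel.

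To see how common this is, all neighbours of receptor genes were examined. The receptors formed 199 runs uninterrupted by another protein-coding gene, with 317 flanking genes. These included receptor-family records whose symbols fall outside the rule, such as Olfr764-ps1 and Olfr329-ps, which also ended runs. Of the 317, 91 (28.7%) held a broad peak in all 4 libraries. Over all protein-coding windows, with 3 kb on each side, the share was 54.2%. Since receptor-family records are among the 317, the 28.7% is not a rate for genes outside the families. In 37 pairs such a marked gene lay within 20 kb of a receptor body. The marked region came within 3 kb of the receptor body in 4 of these pairs and touched it in 0. The median distance from region to receptor body was 13.7 kb in the 37 pairs, and the smallest was 16 bp, at Vmn1r4. Of the 21 receptor windows with an outside start site within 5 kb, 4 held a narrow peak. Of the 95 with the nearest start site at 5 to 20 kb, 0 did, and of the 866 with it beyond 100 kb, 14 did.
Some windows at the edge of a run therefore lay beside another receptor record and not beside a gene outside the families. Edge windows held a narrow peak in 6 of 347 cases (1.73%) and windows inside a run in 19 of 1069 (1.78%). For broad peaks in all 4 libraries these were 4 of 347 (1.15%) and 4 of 1069 (0.374%).

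The strongest peaks without an outside gene were in the class I receptor cluster on chromosome 7, at Olfr630 and Olfr69. This cluster surrounds the beta-globin locus, and Hbb-bt, a beta-globin gene, was the nearest outside gene at 40929 bp from Olfr69 and 55190 bp from Olfr630. Olfr630 (chr7:103753480-103757333, minus strand) had a −log10 q of 142 and 120 in CTR 1 and 2, and 103 and 148 in NPM1 KD 1 and 2 for a peak upstream of its start. Its body was covered in 0 libraries.
Olfr69 (chr7:103765805-103771594, minus strand) was covered in its own body in all 4 libraries, with a −log10 q of 82.3, 64.3, 51.4 and 79.6 in the same order. The broad peaks covered all 948 bp of its single coding exon in each library. The covered length was 5685 and 6137 bp in CTR and 5985 and 5593 bp in NPM1 KD, so that the groups overlapped. Narrow peaks began 1781 to 2234 bp after the annotated start of Olfr69 and left the start site itself free in all 4 narrow lists. The neighbouring Olfr68 held 1 weak narrow peak in CTR 1 (−log10 q of 3.92). The 2 merged narrow regions nearest to Olfr69 consisted to 0% and 11.03% of words of 51 bases, the read length, that recur elsewhere in the genome.

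Olfr1047 was the other receptor with a start site marked in all 4 narrow lists. The region (chr2:86231213-86232695) extended from its first bases into the gap between Olfr1047 (chr2:86226567-86231401, minus strand) and Olfr1048 (chr2:86233951-86240289, minus strand), inside the largest receptor cluster, and was counted in both windows. The nearest outside gene, Gm13723, was 637609 bp away from Olfr1047. The −log10 q of the region was 6.60 and 6.04 in CTR 1 and 2, and 4.79 and 11.5 in NPM1 KD 1 and 2. NPM1 KD held both the lowest and the highest of these values. Of its words of 51 bases 0.539% recurred elsewhere. Neither coding exon was covered in any library.

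At Olfr222 the mark lay in the gene itself. Olfr222 (chr11:59570255-59576235, minus strand) had a −log10 q of 9.15 and 9.60 in CTR 1 and 2, and 9.68 and 5.29 in NPM1 KD 1 and 2. The broad peaks covered 699 and 550 bp of its coding exon of 954 bp in CTR, and 815 and 725 bp in NPM1 KD. The nearest outside gene was the inflammasome sensor Nlrp3 at 3298 bp, and the region reached no body outside the families. Olfr69 and Olfr222 were the only receptors whose coding sequence was covered in all 4 libraries, and these were picked out after their values were seen. In some libraries coding sequence was also covered at Olfr68 (290 bp in the narrow list of CTR 1) and, in the broad lists, at Olfr149 (246 and 34 bp in NPM1 KD 1 and 2). The rest of the windows with neither IAP sequence nor an outside gene were not marked in every library. At Olfr171 only the broad peak of NPM1 KD 2, with a −log10 q of 19.5, crossed the window edge, by 111 bp. Its region (chr16:19632806-19652877) was held by all 4 libraries in the broad lists. The others were weak. Olfr474 had a −log10 q of 4.76 in CTR 1 and 3.42 in NPM1 KD 1, Olfr1033 had 1.81 and Vmn2r83 had 1.496, both in NPM1 KD 2 alone. These names too were chosen after their values were seen.

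Many of the weaker peaks lay on repeats. Of the narrow receptor peaks, 58.3% and 57.1% in CTR 1 and 2, and 40.7% and 58.8% in NPM1 KD 1 and 2, were at least 50% soft-masked, that is, marked as repeats in the reference, with a mean of 53.8% ± 8.71 (SD over 4 libraries). In the complete lists the mean was 16.9%. For broad receptor peaks it was 13.2%. Measured by words of 51 bases that recur in the genome, 63.9, 53.6, 44.4 and 52.9% of the narrow receptor peaks in the same order were mostly recurrent, against 2.64 to 3.44% of the peaks on chromosome 19. Receptor windows themselves were richer in such words, with a median of 7.46% (5.90% for Olfr, 17.1% for Vmn1r and 21.5% for Vmn2r) against 2.86% for other windows on chromosome 19.

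Of the 4 kinds of repeat searched, IAP was the one found under most of these peaks. Other recurrent regions held no IAP words, among them those at Olfr1033 and Olfr474 (both 100% recurrent) and at Vmn2r83, where 18.03% of the words were LINE words. Both IAP primers matched exactly, within 1 kb of each other, at 848 places on chromosomes 1 to 19, and 689 of these copies (81.2%) had a narrow peak within 3 kb in at least 1 library. Copies of the other repeats with primers in the study were seldom near a narrow peak: 82 of 2330 for LINE (3.52%), 60 of 569 for MERVL (10.5%) and 2 of 86 for ETN (2.33%). Broad peaks were near 108 of the 848 IAP copies (12.7%).

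**Figure D3:**
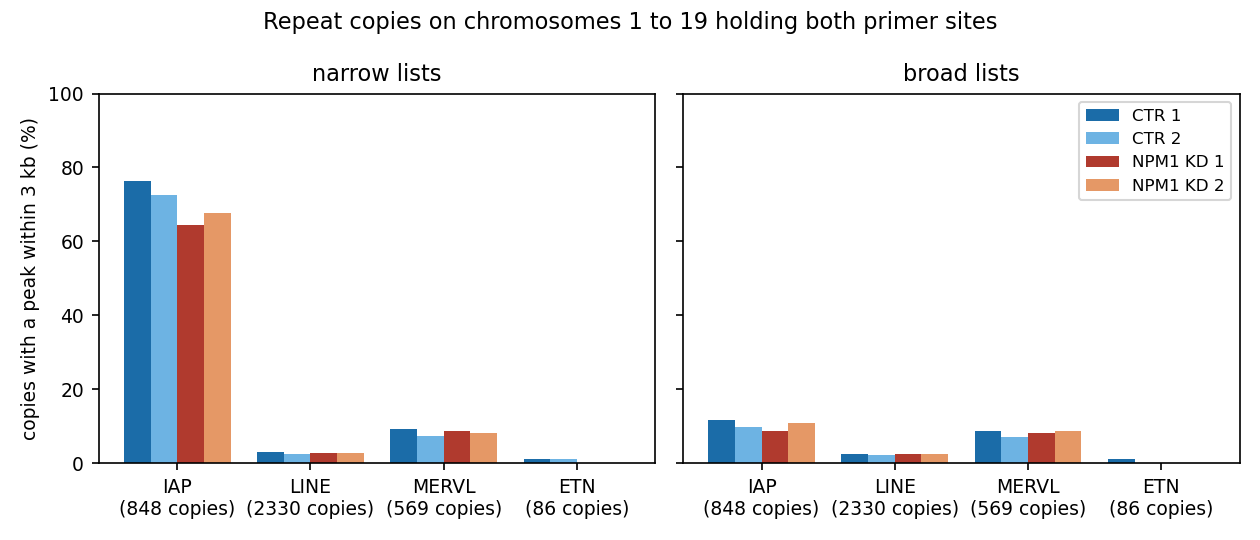
Percentage of repeat copies on chromosomes 1 to 19 with a peak within 3 kb, for the copies that hold both primer sites of IAP, LINE, MERVL and ETN, with 1 bar per library. In the narrow lists IAP stands at 64.4 to 76.3% and the others at 0 to 9.14%, and in the broad lists IAP stands at 8.61 to 11.7%.

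Of the receptor windows, 5 held an IAP copy with both primer sites (Olfr784, Olfr138, Vmn2r35, Vmn2r38 and Vmn2r46), and 4 of these held a narrow peak in all 4 libraries. The exception was Vmn2r35, which held 3 copies and no peak, with the nearest narrow peak 501327 bp away. The 12 windows with a LINE copy, 2 with MERVL and 2 with ETN held no peak. For truncated copies, words of 51 bases found near at least 20 IAP copies were looked up, and a window with at least 500 of them was counted as holding IAP sequence. This gave 17 windows, of which 11 (64.7%) held a narrow peak in at least 1 library, 6 in all 4, and 1 a broad peak. Of the other 1399 windows 14 (1.00%) held a narrow peak, 8 in all 4, and 11 a broad peak. The same count for LINE words gave 3 peaked windows of 157 (1.91%). The 11 peaked windows were those of Olfr11, Olfr138, Olfr194, Olfr761, Olfr784, Olfr1055, Olfr1155, Olfr1305, Vmn2r38, Vmn2r46 and Vmn2r60. The 6 without a peak were those of Olfr31, Olfr129, Olfr1152, Vmn2r11, Vmn2r35 and Vmn2r91. IAP was looked for after the peaks had been seen, so these counts are given without a test. The study kept uniquely mapping reads, but only the broad lists are named as filtered, and whether the narrow lists were called on filtered reads is not known. The part of this step in the difference between narrow and broad lists at IAP was not tested.

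Olfr1305 and Vmn2r46 showed the strongest peaks of this kind. Olfr1305 (chr2:111867657-111877149, minus strand) had 2 narrow regions downstream of its body, with a −log10 q of 23.2 and 12.2 in CTR 1 and 2, and 10.3 and 10.4 in NPM1 KD 1 and 2, and no broad peak. Of the words in these regions 94.6% and 100% were recurrent, with a median of 407 and 917 copies in the genome. Vmn2r46 (chr7:9747811-9770571, minus strand) had peaks inside its body, outside the coding exons, with a −log10 q of 28.4, 8.97, 2.60 and 8.21 in the same order. In these 2 windows, chosen for their strength, the −log10 q of both CTR libraries was above that of both NPM1 KD libraries. In Vmn2r46 the closest values were 8.97 and 8.21. The other IAP windows with a narrow peak in all 4 libraries were divided. Olfr138 and Olfr1055 went the same way, and at Olfr784 and Vmn2r38 the groups overlapped. This order was not counted over all windows and was not tested. In total 28 of the 49 distinct narrow receptor regions (57.1%) consisted mostly of IAP words, as did 6 of the 16 held by all 4 libraries and 1 of the 15 broad regions.

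Peaked windows were scattered over the clusters. Receptor windows less than 500 kb apart formed 73 clusters, 32 of them with at least 10 windows, and 18 of these, with 492 windows, held no narrow peak. The largest cluster, Olfr987 to Olfr1272 on chromosome 2, held a narrow peak in 5 of 217 windows. Olfr543 to Olfr692 on chromosome 7 held one in 3 of 124 and Olfr160 to Olfr986 on chromosome 9 in 2 of 93. The highest shares among clusters of at least 10 windows each came from 1 window: 1 of 13 from Vmn2r46 to Vmn1r71 on chromosome 7, 1 of 14 from Olfr1358 to Vmn2r83 on chromosome 10, and 1 of 17 from Vmn2r29 to Vmn2r37 on chromosome 7.

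The second question was whether knockdown of Npm1 changed the mark in receptor windows. The number of windows with a narrow peak averaged 18 ± 2.83 for CTR and 18.5 ± 0.707 for NPM1 KD (SD, n = 2 each), with overlapping groups (two-sided exact permutation test, p = 1). Without CTR 2, which had the shortest list, the difference of 0.5 windows turned to -1.5, and with all lists of equal size to -3. With broad peaks it was 9 ± 0 and 10.5 ± 0.707 (exact permutation p = 0.33, the smallest that 2 against 2 libraries allow). A narrow peak in both NPM1 KD libraries and in neither CTR library was found in 0 receptor windows, against 0.264% of all protein-coding windows, and the reverse in 0, against 0.0673%. By the rule of 3, a one-sided limit that takes windows as independent, a count of 0 allows a share of up to 0.212% of 1416 windows. Only 25 of the 1416 receptor windows held a narrow peak in any library, against 57.7% of all protein-coding windows. Few receptor windows could therefore be marked in 1 group alone. For this reason, and because windows in a cluster are not independent, this limit does not place receptor windows below all windows. In the broad lists NPM1 KD alone marked 1 window, Olfr149, against 0.288% of all windows, and CTR alone marked 0, against 0.0288%.

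Broad coverage was slightly higher in NPM1 KD, by 1.09 kb, while narrow coverage was lower on average with overlapping groups. In the broad lists it was 19.2 and 18.5 kb in CTR 1 and 2, and 20.3 and 19.6 kb in NPM1 KD 1 and 2, or 18.9 ± 0.440 against 19.9 ± 0.499 kb (exact permutation p = 0.33). The groups did not overlap, but this is the smallest p the design allows. This was 0.0915 to 0.100% of the receptor territory. Broad peaks covered 21.1 and 19.95% of the other protein-coding windows in CTR 1 and 2, and 22.6 and 21.8% in NPM1 KD 1 and 2. Both NPM1 KD libraries were thus above both CTR libraries there too, and the order was not particular to receptor windows. Of the 12 receptor windows with any broad peak, both NPM1 KD libraries exceeded both CTR libraries in 4, and the opposite held in 1. Over all 20807 protein-coding windows these counts were 5742 (27.6%) and 309 (1.49%), with 11906 windows holding a broad peak in at least 1 library. At Olfr222 the covered length was 2832 and 2298 bp in CTR and 3981 and 3005 bp in NPM1 KD. Olfr149 had no broad peak in CTR and 246 and 207 bp in NPM1 KD, with a −log10 q of 1.31 and 1.56, the weakest broad peaks named here. Olfr1047 had 1319 and 1354 bp in CTR and 1417 and 1437 bp in NPM1 KD. For Vmn1r4 the lengths were 2951 and 2939 bp against 2984 and 2963 bp. At Vmn2r46, in the opposite direction, it was 380 and 204 bp in CTR and 0 and 160 bp in NPM1 KD.

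No receptor window passed the test across genes. limma on log2(broad covered bp + 1000) tested 11906 protein-coding windows and called 1 at an adjusted p under 0.05 (0.0084%), which was not a receptor. With the replicate number as a block, limma called 0. Of the 12 receptor windows tested 0 were called and 1, Olfr149, had an unadjusted p under 0.05. Its log2 change was 0.29 (SE 0.033, limma adjusted p = 0.275). The median log2 change was 0.03 over the 12 receptor windows and 0.09 over all windows tested. These windows entered through a peak in at least 1 library, so that their median describes only the marked ones.

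Narrow coverage went in different directions in windows with and without IAP sequence. In the 17 windows with IAP sequence it was 10.4 and 6.17 kb in CTR 1 and 2, and 3.26 and 5.91 kb in NPM1 KD 1 and 2, or 8.28 ± 2.99 against 4.59 ± 1.87 kb (SD, n = 2). Both CTR libraries were above both NPM1 KD libraries, but CTR 2 and NPM1 KD 2 lay close together and the distance between the groups rested on CTR 1 and NPM1 KD 1. In the other 1399 windows it was 16.4, 14.8, 16.4 and 17.3 kb in the same order, or 15.6 ± 1.13 against 16.8 ± 0.602 kb. The difference between the sets was not tested, since the split was made after the peaks were seen. Over all receptor windows the narrow coverage was 23.9 ± 4.12 kb in CTR and 21.4 ± 2.47 kb in NPM1 KD (exact permutation p = 0.667).

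**Figure D4:**
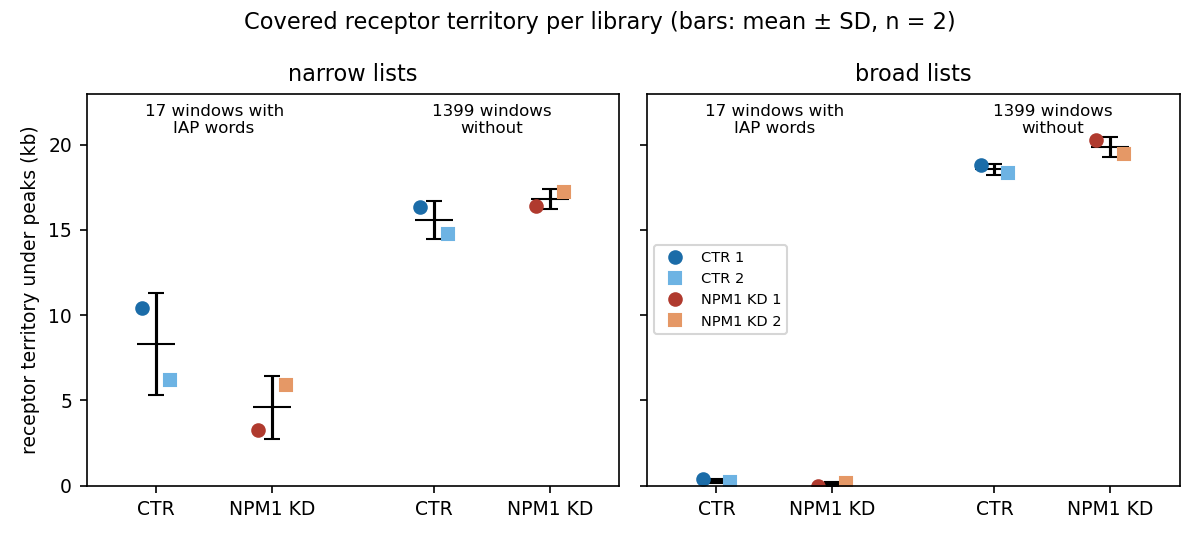
Receptor territory under peaks in kb per library, for the 17 windows with IAP words and the 1399 without, in the narrow and broad lists, with the mean and SD of the 2 libraries of each group. In the narrow lists the windows with IAP words stand at 6.17 to 10.4 kb in CTR and 3.26 to 5.91 kb in NPM1 KD, and the others at 14.8 to 17.3 kb.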

How the data were processed

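H3K79me2 ChIP-seq libraries of N2a cells (2 CTR, 2 NPM1 KD) were analysed from the deposited narrow and broad peak lists, called by the authors per library. Per the labels and methods, paired-end reads were aligned to GRCm38 with Bowtie2 2.3.4.1, reads of high quality that map uniquely were kept, and peaks were called with MACS2. Names of broad peaks mention filtering and names of narrow peaks do not, and it could not be settled whether narrow peaks were called on filtered reads. The submitters' processing notes give MACS2 2.2.6, while the methods of the study name an earlier release. Which one made the lists is not clear. Whether the inputs entered peak calling is not given in the sources used here. Each deposited peak carries a score, a fold enrichment, a −log10 p-value and a −log10 q-value. The score is the −log10 q-value times 10 and was not used further. Because a q-value is set within a library, it moves with depth, which the lists do not hold.

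A gene window was the body plus 3 kb on each side, counted as marked with an overlap of at least 1 bp. Windows were compared by presence, by covered bp with two-sided exact permutation tests over libraries, and across all protein-coding windows with a broad peak by limma 3.58.1 in R 4.3.3, with the covered length plus 1000 bp taken as log2 and p-values adjusted by Benjamini-Hochberg, which was tested on simulated data. The 2 libraries of a group came, per the methods, from different passages and separate transfection batches. Recurrent sequence was measured with words of 51 bases over the genome (Python 3.11.15, numba 0.67.0), without mapping reads. Words near 2 kinds of repeat were left out.

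The genes named were the 8 windows with the highest −log10 q in their weakest library (9 with a tie), those with a marked start site, those marked in 1 group only, the largest differences in broad coverage that did not overlap, and the largest and most marked clusters. Other names were chosen after their values were seen. Members and lists were chosen with earlier results of these data known. Alternatives were broad or narrow lists, a −log10 q of at least 5, other flanks and overlaps, lists of equal size, a replicate block and leaving out each library. The pooled inputs were not used here.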

Additional observations from a re-analysis of the deposited data

How the results depend on the processing

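The number of receptor windows with a narrow peak in at least 1 library was 25, and became 12 with broad lists, 16 with a −log10 q of at least 5, 11 for the gene body only and 15 for the body plus 1 kb (22 to 24 when a library was left out). The number marked in all 4 libraries was 14, and became 8, 7, 6 and 9 under the same settings (14 to 15 when a library was left out). Windows marked in NPM1 KD only went from 0 to 1 with broad lists, and in CTR only from 0 to 1 with lists of equal size. The difference in marked windows, 0.5, was reversed to -2.5 with a −log10 q of at least 5, to -1.5 with an overlap of at least 200 bp and to -3 with lists of equal size, and ranged from -1.5 to 2.5 when a library was left out. It had no stable direction. The difference in broad coverage, 1.09 kb, became -2.45 kb in the narrow lists. Receptor start sites marked in all 4 libraries fell from 2 to 1 with a −log10 q of at least 5, and the share of peaks on repeats was 13.2% with broad lists. limma called 1 window, and 0 with narrow lists, 12 with a −log10 q of at least 5, 0 without the filter and 0 when any library was left out, and no receptor window under any setting. With the replicate block limma called 0, and the differences in windows (0.5) and coverage (1.09 kb) cannot move under the block by construction. Per the methods each replicate was transfected in a separate batch, but whether CTR and NPM1 KD of 1 number shared it is not given. With 2 pairs the numbers were not taken to pair the libraries, with a positive correlation of their differences of 0.262 in the broad and 0.209 in the narrow lists. Chosen after seeing the data, a minimum of 200 or 1000 IAP words gave 21 or 13 windows, 12 or 11 of them peaked, and broad lists left 1 region made mostly of IAP words. The cause of these changes was not tested. With 2 libraries per group the permutation tests cannot reach p under 0.05, and depth is unknown.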

Other observations

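A few other families used in few tissues were counted in the same way, without a test. A narrow peak in at least 1 library was found in 0 of 15 windows of trace amine-associated receptors (Taar), 0 of 35 of bitter taste receptors (Tas2r), 0 of 57 of keratin-associated proteins (Krtap) and 2 of 42 of beta-defensins (Defb). The upper 95% exact limits are 21.8, 10.0, 6.27 and 16.2% in this order, so the shares are loosely bounded. Both Defb windows held a narrow and a broad peak in all 4 libraries.

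Over the genome, a narrow peak lay within 3 kb of 647 (76.3%) and 615 (72.5%) of 848 IAP copies in CTR 1 and 2, and of 546 (64.4%) and 573 (67.6%) in NPM1 KD 1 and 2. Both CTR libraries were above both NPM1 KD libraries, although CTR 2 had the shortest list. In the broad lists the groups overlapped, at 11.7, 9.79, 8.61 and 10.97% in the same order. These copies share sequence and were looked at after the peaks had been seen, so the difference was not tested. The direction in the narrow lists is unlike that in the study, which reported more H3K79me2 at DNA repeats after knockdown by ChIP-qPCR. That assay measures signal, while the counts here are of copies near a called peak.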
